A study of Mus musculus with 10 samples.

Results

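The genes described here are 10 mouse genes of epithelial protease control: the clade B serpins Serpinb2, Serpinb3a, Serpinb5, Serpinb11 and Serpinb12, the kallikrein-related peptidases Klk6, Klk7, Klk8 and Klk10, and the Kazal-type inhibitor Spink5. They were chosen by name, through the accession that the array annotation gives for each probe, out of 19096 genes with a named probe. A gene was represented by its probe with the highest mean over all 10 arrays, and 15 probes measured the 10 genes in all. Clade B serpins are mostly intracellular protease inhibitors, which trap a protease by offering it a loop that it cleaves. Kallikrein-related peptidases are secreted serine proteases made by many lining epithelia, and in skin they cut the junction proteins that hold the outermost keratinocytes together. Spink5 encodes LEKTI, a secreted inhibitor that restrains several of these kallikreins. All 3 kinds of gene are well known from stratified squamous epithelium, which normal lung does not contain.

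Whole-lung RNA of wild-type (WT) animals, 5 samples, was set against RNA of 5 squamous cell carcinomas of the lung (SCC), and each sample was read on 1 single-colour Agilent array. The WT mice carried floxed Lkb1 alleles (Lkb1f/f) and no Cre. The SCC mice were CCSPiCreLkb1f/f, in which the promoter of the club cell secretory protein drives Cre and so deletes Lkb1, a kinase gene, in airway epithelial cells. The labels give strain B6.129 and an age of 13 months for all samples. Because whole organ was set against whole tumour, more cells of a type and more RNA per cell cannot be told apart. Nothing in the labels says that the samples of a group came from separate animals, so p-values measure the spread between these samples.

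Before the results, 2 SCC arrays need to be singled out. SCC replicate 2 had the lowest squamous marker level of the tumours. The mean log2 signal of 8 squamous markers, such as Krt5 and Trp63, was 9.83 on that array, 13.21 to 13.56 on the other 4 SCC arrays and 3.72 to 4.46 on the WT arrays. All 8 markers were higher in SCC, and 4 of them, Krt6a, Dsg3, Sprr1b and Pkp1, did not rise well above background on any WT array. Endothelial markers moved the other way, with a mean over 4 genes of 14.06 to 14.32 on the WT arrays, 12.59 on SCC replicate 2 and 11.53 to 11.89 on the others. The 4 tested neutrophil markers averaged 9.21 on SCC replicate 2, within the WT range of 8.92 to 10.06, and 11.10 to 11.29 on the other SCC arrays. Macrophage markers (7 genes) averaged 13.14 on SCC replicate 2, 13.15 to 13.60 on the WT arrays and 14.12 to 14.28 on the other SCC arrays. Lung epithelial markers (8 genes) averaged 15.74 to 15.95 in WT and 14.65 to 15.33 in SCC. On SCC replicate 5, 90.2% of probes were well above background, against 71.0% to 74.5% on the other 9 arrays. Transcripts linked to sex also differed. Xist was at 2.58 and Ddx3y at 11.28 on SCC replicate 2, like WT replicates 2 and 3, whereas SCC replicate 5 had both, Xist at 13.75 and Ddx3y at 8.34. The part of cell makeup and sex in the results below was not tested.

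The DNA just before the genes is shown first, since these serpins and kallikreins each lie in a cluster of neighbouring genes. RefSeq (GRCm38.p6) gave the 250 bases upstream of an annotated start for 9 of the 10 genes, all but Spink5. These windows were searched on both strands for TGAGTCA, the consensus of the AP-1 factors, for its core with any middle base, TGANTCA, which contains it, for TATAAA, and for the half-site bound by the p53 family, to which the squamous regulator p63 belongs. The consensus TGAGTCA was in 4.46% of all 32851 promoter windows of this length and in none of those of the 9 genes. The looser core was in 6.75% of all windows. It was found in 4 of the 9 genes, the serpins Serpinb2, Serpinb5, Serpinb11 and Serpinb12, and each time the middle base was A or T. TATAAA was in 12.4% of all windows and in those of Serpinb2, Serpinb3a and Serpinb12. The p53 family half-site was in 7.13% of all windows and, among these genes, in that of Klk10. Neighbouring genes share ancestry, so their windows are not independent, and a match describes letters and not binding. Of the windows below, 3 serpin windows show the core and 2 kallikrein windows show its absence. They are written 5′ to 3′ in lower case with capitals for the core, for TATAAA in Serpinb12 and for the half-site in Klk10.
Serpinb5, chr1:106860925-106861174, + strand: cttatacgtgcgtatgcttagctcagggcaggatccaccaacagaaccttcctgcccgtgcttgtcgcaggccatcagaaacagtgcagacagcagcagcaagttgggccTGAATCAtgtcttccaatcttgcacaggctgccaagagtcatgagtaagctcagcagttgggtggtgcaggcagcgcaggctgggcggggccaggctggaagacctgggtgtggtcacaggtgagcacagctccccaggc
Serpinb11, chr1:107362064-107362313, + strand: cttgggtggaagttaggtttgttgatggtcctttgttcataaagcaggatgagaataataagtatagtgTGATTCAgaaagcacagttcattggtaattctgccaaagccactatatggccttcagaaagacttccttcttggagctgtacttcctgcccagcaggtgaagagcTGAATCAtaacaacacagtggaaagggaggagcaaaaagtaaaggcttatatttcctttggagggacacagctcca
Serpinb12, chr1:106934199-106934448, + strand: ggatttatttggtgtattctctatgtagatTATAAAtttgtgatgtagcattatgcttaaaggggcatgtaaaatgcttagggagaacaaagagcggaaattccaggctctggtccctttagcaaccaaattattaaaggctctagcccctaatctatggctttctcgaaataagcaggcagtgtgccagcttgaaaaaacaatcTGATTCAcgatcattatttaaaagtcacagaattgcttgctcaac
Klk7, chr7:43811044-43811293, + strand: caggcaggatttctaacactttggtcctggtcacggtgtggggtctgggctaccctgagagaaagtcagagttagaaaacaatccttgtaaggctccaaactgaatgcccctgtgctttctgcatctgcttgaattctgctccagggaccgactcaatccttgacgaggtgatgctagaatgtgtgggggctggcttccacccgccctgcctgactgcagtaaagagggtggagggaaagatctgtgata
Klk10, chr7:43780804-43781053, + strand: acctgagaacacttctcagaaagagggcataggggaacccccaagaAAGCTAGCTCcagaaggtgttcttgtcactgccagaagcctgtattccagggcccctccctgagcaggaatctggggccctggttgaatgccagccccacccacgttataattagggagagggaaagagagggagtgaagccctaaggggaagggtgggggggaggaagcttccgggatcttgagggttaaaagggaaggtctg
In Serpinb5 the core starts at position -140 and in Serpinb12 at position -45, counted back from the annotated start, and Serpinb11 has it at more than 1 position.

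Of the 10 genes, 9 had a tested probe and all 9 were higher in SCC than in WT, which needed a limma adjusted p below 0.05 and a difference of at least 2-fold. Over all 30374 tested probes, 9.92% were called higher and 13.0% lower, 22.9% in all. Serpinb5, Serpinb11 and Klk6 had no WT signal well above background and passed the filter only through the tumours, so they could be called in 1 direction alone, and the count of 9 is a description. Fitted differences ranged from 1.74 log2 units for Klk7 to 11.57 for Serpinb5. Their median was 3.81, or 2.70 with those 3 genes at their bounds, beside a median of -0.09 over all tested probes. Serpinb3a was not tested. In 5 of the 9 genes every SCC array lay above every WT array, which held for 16.3% of all tested probes. For Klk6, 1 of the 5, neither SCC replicate 2 nor any WT array was well above background, so the order of those values carries no information. In the other 4, Serpinb2, Klk7, Klk8 and Spink5, SCC replicate 2 lay below the highest WT array, and the other 4 SCC arrays lay above all WT arrays. A limit applies to every one of these results. The arrays lay on 3 slides, and only slide 2 held both groups, with WT replicate 5 and SCC replicates 1 to 3. With slide as a fixed block, the difference rests on those 4 arrays, all 9 differences stayed positive, and only Serpinb5 was still called, where 4.62% of all tested probes were called higher. When SCC replicate 2 was also left out of that fit, an alternative chosen after seeing the data, 8 of the 9 genes were called, all but Klk7, where 10.6% of all tested probes were called higher.

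**Figure D1:**
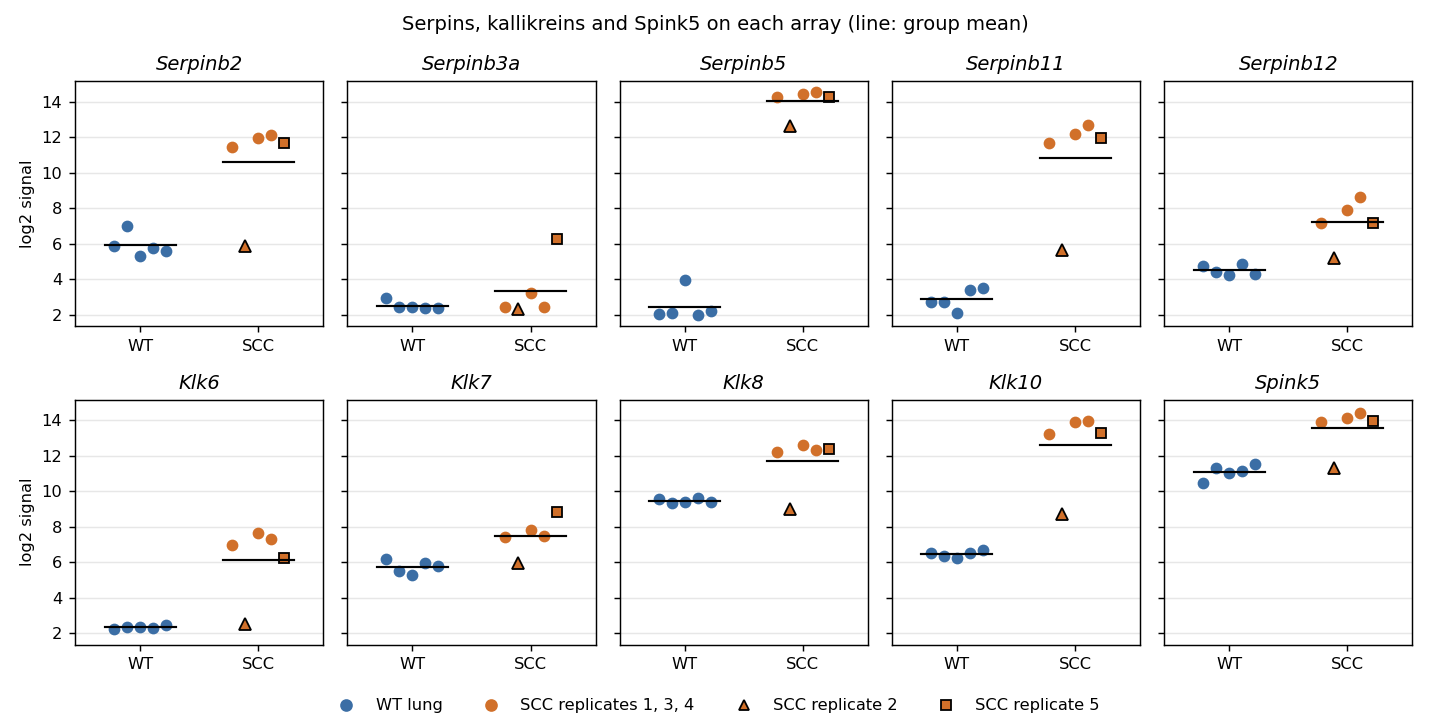
Log2 quantile-normalised signal (vertical axis) of the brightest probe of each of the 10 genes on the 5 WT (blue) and 5 SCC (orange) arrays, with horizontal lines at the group means. SCC replicate 2 (triangle) is the lowest SCC array for every gene, at 8.74 for Klk10 where the other SCC arrays are between 13.25 and 13.94, and Serpinb3a is raised on SCC replicate 5 (square) alone. Levels of different genes come from different probes and cannot be compared.

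Among the serpins, Serpinb5 encodes maspin, a serpin without known protease inhibitor activity that is made by basal and myoepithelial cells. Its log2 signal was 2.04, 2.08, 3.96, 1.99 and 2.19 on WT replicates 1 to 5, not well above background on any of them, and 14.24, 12.63, 14.43, 14.54 and 14.28 on SCC replicates 1 to 5. All 5 tumours were far above all 5 lungs, SCC replicate 2 included. Serpinb5 was at least 1014-fold higher in SCC, a bound set by the dimmest probes well above background on the WT arrays. The fitted difference was 11.57 (SE 0.47, limma adjusted p 3.54e-07), and with slide as a block it was 11.58 (adjusted p 0.0011).

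Serpinb11, a less studied serpin of the same gene cluster, was likewise well above background on no WT array, with log2 signals of 2.70, 2.69, 2.11, 3.38 and 3.53. In SCC it was at 11.68, 5.64, 12.19, 12.70 and 11.97 on replicates 1 to 5. SCC replicate 2 lay between the 2 sets of values, above every WT array and far below the other tumours. Serpinb11 was at least 111-fold higher in SCC (fitted difference 7.95, SE 1.21, limma adjusted p 0.000525), and at least 273-fold higher without SCC replicate 2. With slide as a block the difference was 6.31 and the adjusted p 0.0979.

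Serpinb2 encodes a plasminogen activator inhibitor that is also made by activated macrophages and by keratinocytes. It was measured on all 10 arrays, at 5.88, 6.98, 5.32, 5.75 and 5.61 in WT and at 11.46, 5.86, 11.95, 12.15 and 11.69 on SCC replicates 1 to 5. SCC replicate 2 lay within the WT range. The mean difference was 4.72 (SE 1.11, limma adjusted p 0.00628, exact two-sided permutation p 0.0238), and the other probe of the gene gave 4.84. Without SCC replicate 2 the difference was 5.91. The slide block gave 4.15 with an adjusted p of 0.216.

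Serpinb12, which inhibits trypsin-like proteases, was well above background on 4 WT arrays and on all 5 SCC arrays. Its WT values were 4.73, 4.41, 4.26, 4.88 and 4.32, and its SCC values were 7.19, 5.19, 7.89, 8.62 and 7.19. The groups did not overlap, with SCC replicate 2 closest to WT. The difference was 2.70 (SE 0.53, limma adjusted p 0.00236), and 2.44 with slide as a block (adjusted p 0.131). A dimmer probe of Serpinb12, well above background on 3 SCC arrays and never in WT, was not tested.

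Serpinb3a, a mouse relative of the human squamous cell carcinoma antigens, showed no such rise. Its brighter probe was between 2.35 and 2.92 on the WT arrays, at 2.34 to 3.24 on SCC replicates 1 to 4 and at 6.26 on SCC replicate 5, the only array where it was well above background. That is the array with the raised share of probes above background. The second probe was well above background on no array. Serpinb3a has near-identical neighbours, Serpinb3b, Serpinb3c and Serpinb3d, so the gene behind a signal on such probes is uncertain.

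Among the kallikreins, Klk10 is an epithelial member of the family whose own protease activity is not well established. It was at 6.54, 6.33, 6.21, 6.50 and 6.67 in WT and at 13.25, 8.74, 13.93, 13.94 and 13.29 on SCC replicates 1 to 5. Each SCC array, replicate 2 too, was above each WT array. The difference was 6.18 (SE 0.90, limma adjusted p 0.000401), a mean of 72.3-fold, and 7.15 without SCC replicate 2. With slide as a block it was 5.30 (adjusted p 0.0762).

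Klk6, a trypsin-like protease best known from brain, was well above background on no WT array, where it was between 2.22 and 2.44. It was at 6.97, 7.64, 7.32 and 6.21 on SCC replicates 1, 3, 4 and 5, and at 2.52, not well above background, on SCC replicate 2. Klk6 was at least 4.27-fold higher over the 5 tumours (fitted difference 3.81, SE 0.85, limma adjusted p 0.00457) and at least 7.98-fold higher without SCC replicate 2. With slide as a block the difference was 3.27 and the adjusted p 0.228. After normexp background correction, which adds an offset of 50 to every signal, the difference was 0.98 and no longer reached 2-fold.

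Klk7, the chymotrypsin-like protease of the outer skin, had 3 tested probes that did not give the same size of change. The brightest was at 6.20, 5.49, 5.30, 5.95 and 5.80 in WT and at 7.41, 5.94, 7.81, 7.46 and 8.84 in SCC, a difference of 1.74 (SE 0.45, limma adjusted p 0.0099). The second went from a WT mean of 3.99 ± 0.35 (SD, n = 5) to an SCC mean of 8.56 ± 2.68 (SD, n = 5), a fitted difference of 4.57, or 5.76 without SCC replicate 2. It was well above background on 1 WT array only, so this is not an exact size. The third, well above background on no WT array, differed by 4.20, which gave a bound of at least 8.96-fold, or 18.3-fold without SCC replicate 2. On all 3 probes SCC replicate 2 lay within the WT range. The slide block gave 1.25 for the brightest probe (adjusted p 0.317) and normexp gave 0.86, under 2-fold.

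Klk8, or neuropsin, a trypsin-like protease of skin and brain, was measured on all 10 arrays. In WT it was at 9.59, 9.33, 9.40, 9.61 and 9.40, and in SCC at 12.20, 9.02, 12.63, 12.33 and 12.39. SCC replicate 2 was below all 5 WT arrays, and the other 4 tumours were above all 5. The mean difference was 2.25 (SE 0.62, limma adjusted p 0.0133, exact two-sided permutation p 0.0476). Without SCC replicate 2 it was 2.92, and with slide as a block 1.88 (adjusted p 0.317).

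The inhibitor gene Spink5 followed the same course from a WT signal well above background. Its WT values were 10.46, 11.31, 11.02, 11.15 and 11.53, and its SCC values were 13.93, 11.29, 14.15, 14.43 and 13.94. SCC replicate 2 lay within the WT range. The difference was 2.45 (SE 0.55, limma adjusted p 0.00459), and 1.59 with slide as a block (adjusted p 0.318). For Spink5 and each of the 4 kallikreins, SCC replicates 1, 3, 4 and 5 were above every WT array.

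**Figure D2:**
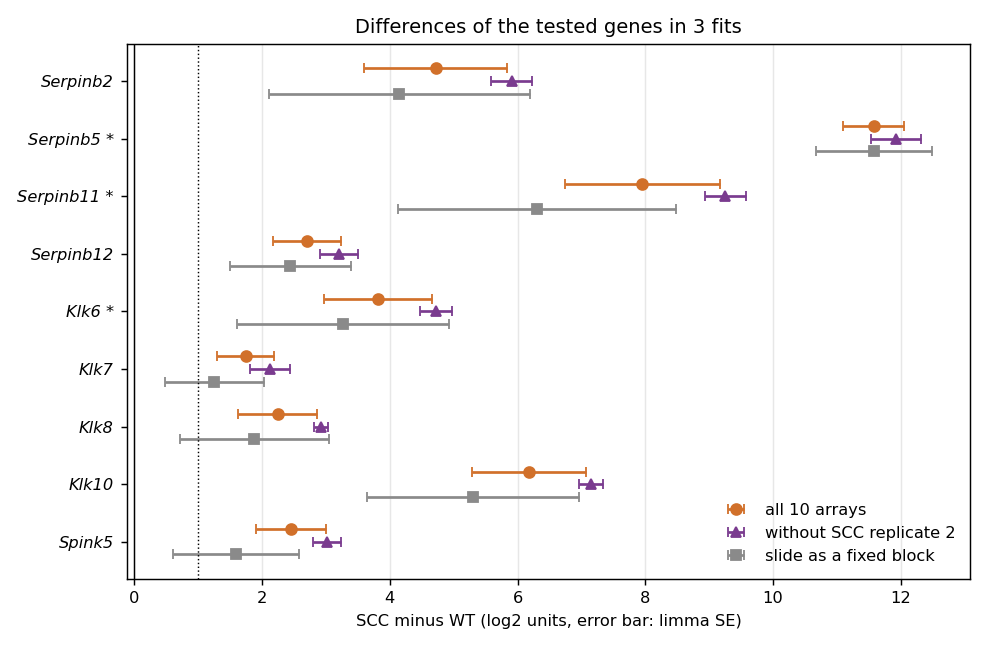
Differences between SCC and WT (horizontal axis, log2 units, with limma standard errors) for the 9 tested genes over all 10 arrays, without SCC replicate 2, and with slide as a fixed block. The dotted line marks 2-fold, and stars mark genes well above background on no WT array, whose fitted differences are not bounds. Leaving out SCC replicate 2 raised every difference, for Klk10 from 6.18 to 7.15, and the slide block widened every error.

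The 9 genes were unequal in how far SCC replicate 2 fell short of the other tumours. Its log2 signal minus the mean of the other 4 SCC arrays was -1.74 for Serpinb5, -1.94 for Klk7, -2.53 for Serpinb12, -2.82 for Spink5, -3.37 for Klk8, -4.86 for Klk10, -5.95 for Serpinb2 and -6.49 for Serpinb11. Klk6 was not well above background on SCC replicate 2, and setting that array to its dimmest signal well above background gave -3.07, a bound on the gap. The median over the 9 genes was -3.07 with Klk6 at this bound and -3.37 with its measured signal. Over the 3331 probes that were at least 2-fold higher with SCC replicates 1, 3, 4 and 5 above every WT array, the median of measured signals was -1.06. These probes needed only a 2-fold rise, whereas the 9 genes had a fitted median rise of 4.72 without SCC replicate 2. The medians therefore come from sets unlike in the size of their rise. SCC replicate 2 was not above every WT array for 895 of these probes, or 26.9%, and for 4 of the 9 genes. Without SCC replicate 2, all 9 genes were called, with an adjusted p of at most 0.000407 (limma), where 11.5% of all tested probes were called higher. The calls also held without SCC replicates 2 and 5 together.

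Placed in order along the chromosome, 8 of the kallikreins that rose were neighbours. From Klk14 through Klk12, Klk11, Klk10, Klk9, Klk8 and Klk7 to Klk6, each gene with a probe was called higher. With slide as a fixed block, limma called 0 of these 8 genes (adjusted p 0.0585 to 0.317, with 3 at an unadjusted p below 0.05), and 7 when SCC replicate 2 was also left out. Klk13, inside this run, had no named probe. Next to it Klk5, which activates other skin kallikreins, was not tested, being well above background on 1 of the 10 arrays, SCC replicate 5. Klk4 (0.26, limma adjusted p 0.367) and Klk15 (0.74, adjusted p 0.110) were tested and not called. Of the 10 tested genes from Klk4 to Klk15, 8 were called higher, with a median difference of 3.33, or 2.59 with Klk6 and Klk12 at their bounds, and 9.92% of all tested probes were called higher. Klk6, Klk11, Klk12 and Klk15 passed the filter only through the tumours, so this count is a description. Of the 7 tested genes of the neighbouring Klk1 group, the tissue kallikreins of mouse salivary gland and kidney, 1, Klk1b11, was called higher and 2 lower, with a median of -0.58. Klk1 group genes are near-identical, so their probes may share signal. The nearest tested genes outside the cluster, Ctu1 (0.34) and 2410002F23Rik (0.38), did not reach 2-fold.

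In the serpin cluster on chromosome 1, Serpinb5, Serpinb12, Serpinb11, Serpinb2 and Serpinb8 were called higher, and between Serpinb2 and Serpinb8 lies Serpinb10, which fell. Of the 12 genes there with a probe, 7 were tested, 5 were called higher and 1 lower, with a median of 3.07, beside 9.92% and 13.0% of all tested probes. Serpinb5 and Serpinb11 passed the filter only through the tumours, so this count is a description. Of the 5, only Serpinb5 was still called higher with slide as a fixed block (limma adjusted p 0.0918 for Serpinb8, and those of the others are given above). The remaining tested gene, Serpinb3c, differed by 0.86. On chromosome 13, the second home of this family, 5 of 10 tested genes were called higher with a median of 1.14. Serpinb9f and Serpinb9g among them passed the filter only through the tumours, so this count too is a description. With slide as a block, Serpinb9f, Serpinb9g and Serpinb1b lost their calls (limma adjusted p 0.391, 0.289 and 0.0678). The flanking genes Bcl2 (-0.84), Kdsr (-0.27), Vps4b (0.60) and Dsel (-0.68) stayed under 2-fold. Whether genes of a cluster rise together for a shared reason was not tested.

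**Figure D3:**
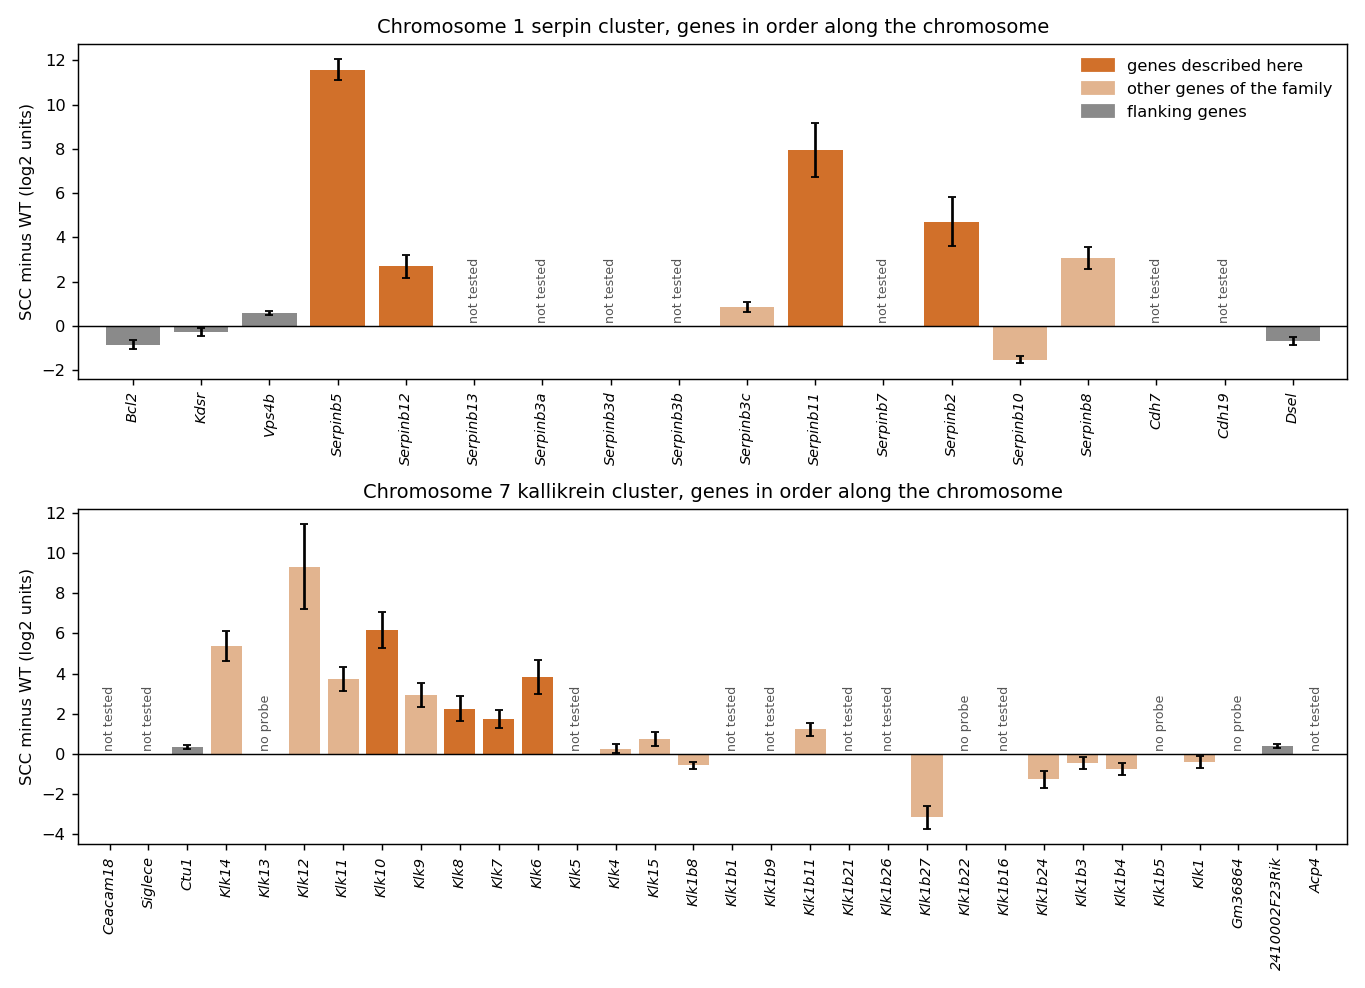
Differences between SCC and WT (vertical axis, log2 units, bars from 0 with limma standard errors) for genes of the serpin cluster (upper) and the kallikrein cluster (lower) in chromosomal order, with the genes described here in dark orange, their family members in light orange and flanking genes in grey. From Klk14 to Klk6 every tested bar is positive, up to 9.34 for Klk12, whereas the Klk1 group on the right has a median of -0.58. Bars of genes well above background on no WT array, such as Klk12, are fitted values, not bounds.

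Genes related to these by family or by the reactions they take part in were looked at as lists. Beside every list count from here on stand 9.92% of all tested probes called higher and 13.0% called lower. The lists were chosen with earlier results of these data known, so the counts are descriptions. Of 13 tested other clade B serpins, 6 were called higher and 1 lower, with a median of 0.86. Serpinb8, an inhibitor of furin, rose by 3.07 (limma adjusted p 0.00086). Serpinb9g and Serpinb9f, near-identical relatives of a granzyme B inhibitor whose probes cannot be assigned with certainty, lacked WT signal well above background and were at least 6.27-fold and 5.24-fold higher, or 13.4-fold and 9.87-fold without SCC replicate 2. The call of Serpinb9f was lost without SCC replicate 1 (adjusted p 0.0570), SCC replicate 3 (0.0538) or WT replicate 4 (0.0527). Serpinb10 fell by 1.51.

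Of 13 tested other kallikreins, 5 were called higher and 2 lower, with a median of 0.26. Klk12, a trypsin-like family member, was well above background on 4 SCC arrays but never in WT, and was at least 148-fold higher, or at least 741-fold without SCC replicate 2. It was not well above background on SCC replicate 2, and setting that array to its dimmest signal well above background gave -9.61 against the mean of the other tumours, a bound on the gap. Klk14, which with Klk5 and Klk7 acts in skin shedding, rose by 5.39, or 6.22 without SCC replicate 2. Klk11 rose by a fitted 3.73 (4.33 without SCC replicate 2), not an exact size since it was well above background on 1 WT array only. Klk9 (2.94, or 3.54 without SCC replicate 2) and Klk1b11 (1.21) completed the 5, and are named after their values were seen because the count is small. Klk1b27 fell by 3.18, a fitted value since it was well above background on 1 SCC array only. Klk1b24 fell by 1.26, also not an exact size, being well above background on 2 SCC arrays only. After normexp the values were -0.71 and -0.28, both under 2-fold, and with 75th percentile scaling Klk1b24 was at -0.80 (limma adjusted p 0.0849) and no longer called. The Klk1b24 call was lost in 6 of the 10 fits that left out 1 replicate (WT replicates 2, 3 and 5, and SCC replicates 3, 4 and 5).

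Of 16 tested epithelial protease inhibitors of other families, 11 were called higher and 1 lower, with a median of 1.56. Over all tested probes 9.92% were called higher and 13.0% lower. Wfdc5, a whey acidic protein domain inhibitor, was well above background on no WT array and at least 69.4-fold higher, or 145-fold without SCC replicate 2. Stfa3 and Stfa1, stefins that inhibit cysteine cathepsins and have near-identical relatives, rose by 5.27 and 4.77, or by 6.47 and 5.98 without SCC replicate 2, on which Stfa1 lay within the WT range. Stefins are also made by neutrophils, whose markers were higher on the same 4 tumours. Tfpi, the inhibitor that limits tissue factor and that endothelium makes, fell by 1.43. Among 3 tested Kazal inhibitors other than Spink5, Spink2 fell by 4.45 and the others were not called. The Spink2 call was lost with slide as a block (limma adjusted p 0.0771). It stayed lost when SCC replicate 2 was also left out of that fit (limma adjusted p 0.0894).

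Of 15 tested membrane-bound and barrier proteases, 13 were called higher, with a median of 2.09, or 1.72 with 5 genes at their bounds. Those 5 passed the filter only through the tumours, so this count is a description, beside 9.92% of all tested probes called higher. Prss27 and Tmprss11d, trypsin-like proteases of surface epithelia, lacked WT signal well above background and were at least 102-fold and 20.4-fold higher, or 288-fold and 33.5-fold without SCC replicate 2. Tmprss13 rose by 4.95. Of 5 tested substrates and receptors of kallikreins, 2 were called higher and 1 lower. Cdsn, or corneodesmosin, an adhesive protein that Klk7 cleaves, rose by 3.47, or 4.42 without SCC replicate 2, which lay below all WT arrays. Dsg1b, a desmosomal cadherin, was well above background on no WT array and at least 1.48-fold higher, a bound under 2-fold. Its call was lost with normexp (0.32) and with slide as a block (limma adjusted p 0.300). F2r, a thrombin receptor, fell by 1.35. The calls of Prss27, Cdsn and F2r were also lost with slide as a block (limma adjusted p 0.138, 0.282 and 0.115). Those of Tmprss11d and Tmprss13 were kept.

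Proteases that clade B serpins can inhibit did not move together. Of 9 tested, 3 were called higher, the cathepsins Ctsk (2.71), Ctsl (1.47) and Ctsb (1.34), and 2 were called lower, the granzymes of cytotoxic lymphocytes Gzma (-2.60) and Gzmb (-2.64). In the plasminogen activator system, 2 of 8 tested genes were called higher. Plau, or urokinase, the main target of Serpinb2, rose by 1.57, and Plat, the tissue plasminogen activator, by 1.43. Leaving out any 1 array other than SCC replicate 2 or WT replicate 3 took the adjusted p of Plat above 0.05, up to 0.0729. Over all these lists, 42 genes were called higher and 8 lower, where 9.92% and 13.0% of all tested probes were. With slide as a block 11 and 3 were called, and with SCC replicate 2 also left out 43 and 5. In those fits 4.62% and 10.6% of all tested probes were called higher. Genes such as Klk12, Wfdc5 and Prss27 passed the filter only through the tumours, so these counts are descriptions. Of the 27 list genes named by the rule given below, 20 lost their call with slide as a block.

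**Figure D4:**
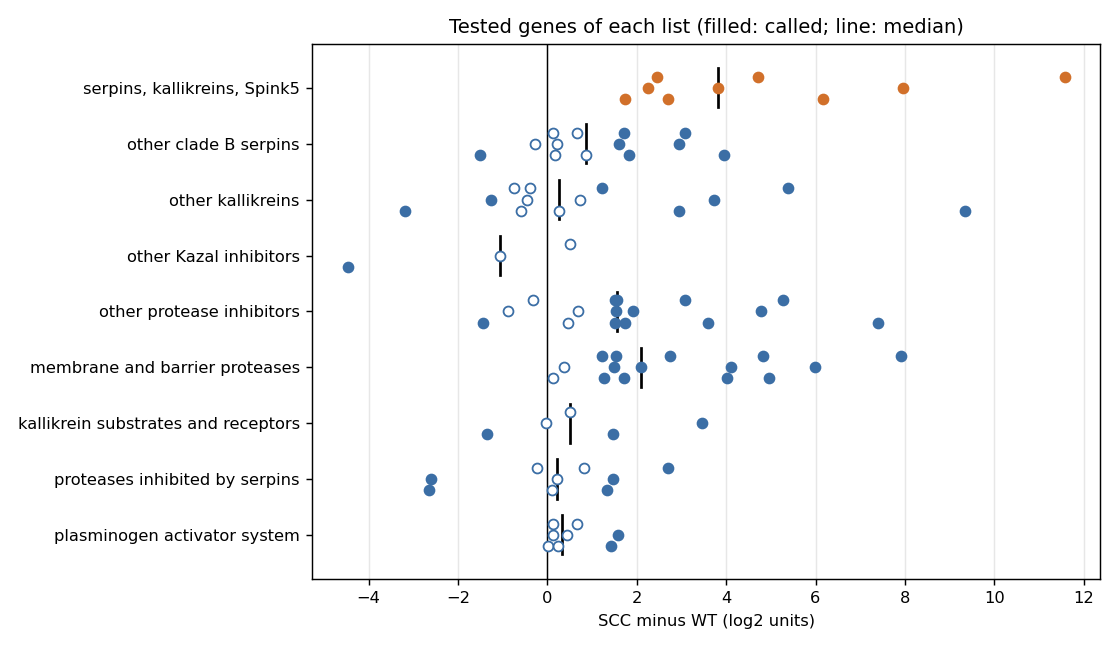
Differences between SCC and WT (horizontal axis, log2 units) of every tested gene in each list, with filled points for called genes, open points for genes not called and a black line at the median. The 9 genes described here (orange) are all filled and lie to the right of 0, with a median of 3.81, and the membrane and barrier proteases have a median of 2.09. Points of genes well above background on no WT array are fitted values, not bounds.

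Finally, all 15512 genes with a tested probe were ranked by how close their profile over the 10 arrays came to the mean profile of the 9 genes, by root mean square distance after centring each gene. Excluding the 9 genes themselves, the nearest were Oasl1 at 0.238, Apol7a at 0.248, Arc at 0.262, Sh2d5 at 0.312 and Duox1 at 0.324 log2 units, beside a median distance of 2.68. Oasl1 belongs to a family of interferon-induced genes, Arc is best known from synapses, and Duox1 makes hydrogen peroxide at epithelial surfaces. Oasl1 was at 6.80 to 7.05 on the WT arrays, at 7.96 on SCC replicate 2 and at 12.14 to 12.83 on the other 4 SCC arrays. The 9 genes themselves were 0.606 (Klk6) to 3.48 (Serpinb5) from their own mean profile, each farther from it than the 5 genes named. Those 5 were picked as the nearest of all genes compared and the 9 were not, so that order is a description.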

How the data were processed

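Per the file headers, the authors extracted spot signals with Agilent Feature Extraction. Each deposited scanner file gives a processed intensity per spot, linear and background-subtracted, with quality flags. A deposited matrix gives log2 values, quantile-normalised as the methods of the authors state. It matched the values computed here (smallest r per array 1) and was an alternative only.

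Control and flagged outlier spots were left out, spots of a probe were averaged, and 41174 probes were quantile-normalised and taken to log2. Subsets of arrays were not renormalised. A probe was tested if at least 0.5 of its spots were well above background on at least 4 of 5 arrays of a group, which left 30374. Testing used limma 3.58.1 in R 4.3.3 (two-sided, Benjamini-Hochberg over all tested probes), in place of the one-way ANOVA of the methods. A call needed an adjusted p below 0.05 and at least 2-fold. Every adjusted p is from limma. The exact permutation test covered all 252 splits, with 0.00794 as its smallest p. The fit was tested on simulated data. Bounds set the SCC mean against the mean, over WT arrays, of the lowest normalised signal of a probe well above background, or the probe's own if higher. The number of arrays limits precision.

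Accessions were paired with symbols through RefSeq (GRCm38.p6), which named 28223 probes (68.5%). Slides were taken from array barcodes. The genes and lists were chosen with earlier results of these data known. Named genes were the 10 genes. From each other list came all called genes, or where more than 5 were called the 3 largest changes each way. The 5 nearest profiles were added.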

Additional observations from a re-analysis of the deposited data

Results flagged for a closer look

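In 83 groups of 5 arrays, 1 array's distance to its nearest neighbour was taken as a share of the group's whole range, and shares above 0.71 were singled out. For 1 group alone, chance gives about 1 in 20. The groups share the same arrays, and the genes were chosen with earlier results of these data known. Their count therefore cannot be set against that rate and is a description. There were 33, and in 31 of them SCC replicate 2 was the lowest tumour. Among the genes described above they were Serpinb2 (0.89), Serpinb5 (0.843), Serpinb11 (0.856), Klk6 (0.722), Klk8 (0.881), Klk10 (0.867) and Spink5 (0.841). On SCC replicate 2 Klk6 was not well above background, so its share, close to the limit of 0.71, is uncertain. Klk7, taken by its brightest probe, and Serpinb12 did not pass.

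SCC replicate 2 stood apart in the same way for the family members Serpinb8 (0.774), Klk11 (0.77), Klk12 (0.948) and Klk14 (0.904). It did so for the inhibitors Wfdc5 (0.9), Stfa1 (0.965) and Stfa3 (0.947), the proteases Prss27 (0.941), Tmprss11d (0.834) and Tmprss13 (0.799), the kallikrein substrate Cdsn (0.887) and the proteases Ctsb (0.757), Ctsk (0.847), Ctsl (0.913), Plau (0.81) and Plat (0.827). The genes nearest in profile, Oasl1 (0.859), Apol7a (0.854), Arc (0.918), Sh2d5 (0.797) and Duox1 (0.832), were chosen for likeness to the 9 genes. The mean of the squamous markers (0.906), of the neutrophil markers (0.909) and of the macrophage markers (0.854) did so too. Their part in the low values of SCC replicate 2 was not tested.

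On other arrays, Serpinb3a stood apart on SCC replicate 5 (0.769), where it was the highest, and Tmprss13 on WT replicate 4 (0.829).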

How the results depend on the processing

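All 9 genes kept their direction under every alternative run. The number called was 9 in each fit that left out 1 replicate (range 9 to 9), with 75th percentile scaling, the deposited matrix, no filter, slide as a random block and the methods' t-test (the one-way ANOVA of the methods, which for 2 groups is a t-test) after adjustment. It was 8 with that test at unadjusted p below 0.01, 7 with normexp, 5 where probes had to be well above background on all arrays, because only 5 of the 9 were then tested, and 1 with slide as a fixed block. With SCC replicate 2 also left out, chosen after seeing the data, it was 8, and list genes called were 43 higher and 5 lower. List genes called higher went from 42 to 11 with the slide block, and lower from 8 to 3. The cause was not tested.

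Over all tested probes, calls went from 6954 (3014 higher, 3940 lower) to 3969 with normexp (1909 and 2060), 2988 with slide as a fixed block (1402 and 1586) and 14878 on adjusted p alone (6790 and 8088). They ranged from 6385 to 8135 when 1 replicate was left out. Scaling to the 75th percentile moved the median difference from -0.09 to 0.03 and gave 3504 higher and 3080 lower calls.

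Replicate numbers did not pair the samples, as deviations of same-numbered arrays correlated between -0.10 and 0.0087. With the replicate block 6571 probes and the same count of 9 genes were called. Dim probes on WT arrays give bounds only.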
